A study of Mus musculus with 28 samples.

Results

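The cation-chloride cotransporters described here were 4 genes of the Slc12 family, out of 41549 genes counted in sorted nuclei of mouse motor cortex. They were Slc12a2 (NKCC1), Slc12a5 (KCC2), Slc12a4 (KCC1) and Slc12a7 (KCC4), and each was matched by its gene symbol. They were chosen from the family with values of these libraries in view, and Slc12a2 was already known to stand higher with the g4 vector in HA-negative nuclei. That contrast is therefore given for the members as a description without a test, and so are their levels. The label was checked by symbol and Ensembl identifier, and all 4 matched annotated Slc12 genes.

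Animals 17 to 23, 7 mice in all, had AAV-Cas9-miR-124-empty injected into the left motor cortex and AAV-Cas9-miR-124-g4 into the right. Both are adeno-associated virus vectors for the nuclease Cas9 in a study of microRNA knockdown, and they are called empty and g4 below. The controls therefore carried Cas9 too, and vector and hemisphere cannot be told apart. Fixed nuclei were stained for the HA tag that marks Cas9 and sorted into HA-positive and HA-negative nuclei, which gave 4 groups of 7 libraries, 28 in all. The sources used here do not give the promoter that drives Cas9, the meaning of g4, or the age and strain of the mice. Because the nuclei were pooled before counting, fewer cells of a type and less RNA per cell cannot be told apart in any value below.

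Libraries held 248612 to 902944 counts, and 8687 to 13668 genes were detected in each. Fewest were detected in empty HA-positive libraries, 10376 ± 1372 against 11885 ± 1380 with g4 (SD, n = 7). In HA-negative libraries the numbers were 12482 ± 624 with the empty vector and 12479 ± 858 with g4. Under 10000 genes were detected in the empty HA-positive libraries of animals 17, 21 and 22 and in the g4 HA-positive library of animal 18. The g4 HA-positive library of animal 19 stood apart. Levels are given as CPM, read counts scaled to a common library size. This library held 646 CPM of Xist, made from the inactive X chromosome of females, and 48.1 CPM of Y-linked transcripts. The remaining 15 libraries of animals 17 to 20 had Xist at 0 and at least 107 CPM of Y-linked transcripts. Results that rest on it are given with and without it. As a check of the targeted locus, the hairpin gene Mir124a-2 had 57 counts in g4 HA-positive libraries and 0 in the other groups, and Mir124a-1 and Mir124a-3 were at 0 in every library.

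Cation-chloride cotransporters move chloride together with sodium or potassium, and so set the chloride gradient on which inhibitory transmission through GABA-A receptors depends. NKCC1 brings chloride into the cell, and the potassium-chloride cotransporters, the KCCs, carry it out. KCC2 is the extruder of mature neurons. NKCC1 dominates in immature neurons and in the adult brain is also made by glia, including cells of the oligodendrocyte lineage. Kinases of the WNK family, acting through SPAK and OSR1, activate NKCC1 and inhibit the KCCs.

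Slc12a2, the chloride importer (ENSMUSG00000024597, chromosome 18, 57878678 to 57946821, plus strand, GRCm38), was lower in HA-positive than in HA-negative nuclei with both vectors. Within HA-positive nuclei it stood higher with g4 than with the empty vector in every animal, but this did not pass the test over all genes. Its level in empty HA-positive libraries was 3.59, 4.21, 5.88, 21.2, 19.7, 0 and 38.4 CPM in animals 17 to 23. The counts behind these values were 1, 2, 2, 13, 7, 0 and 10, so this group rests on 35 counts in all. Animals 20, 21 and 23 were high, and animal 22 had no count. In empty HA-negative libraries it was 116, 47.2, 86.2, 46.4, 97.2, 74.8 and 101 CPM, from 328 counts. The lowest of these, in animal 20, lay above the highest empty HA-positive library, so the groups did not overlap.

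With g4, Slc12a2 was at 50.4, 28.7, 132, 38.3, 22.8, 26.1 and 41.2 CPM in HA-positive libraries, from 220 counts, of which 121 came from animal 19. In g4 HA-negative libraries it was at 108, 112, 107, 136, 167, 135 and 129 CPM, from 506 counts. Animal 19 alone made these groups overlap, since the 6 other g4 HA-positive libraries reached at most 50.4 CPM. The plot of CPM by library shows all 4 members in this way.

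**Figure D1:**
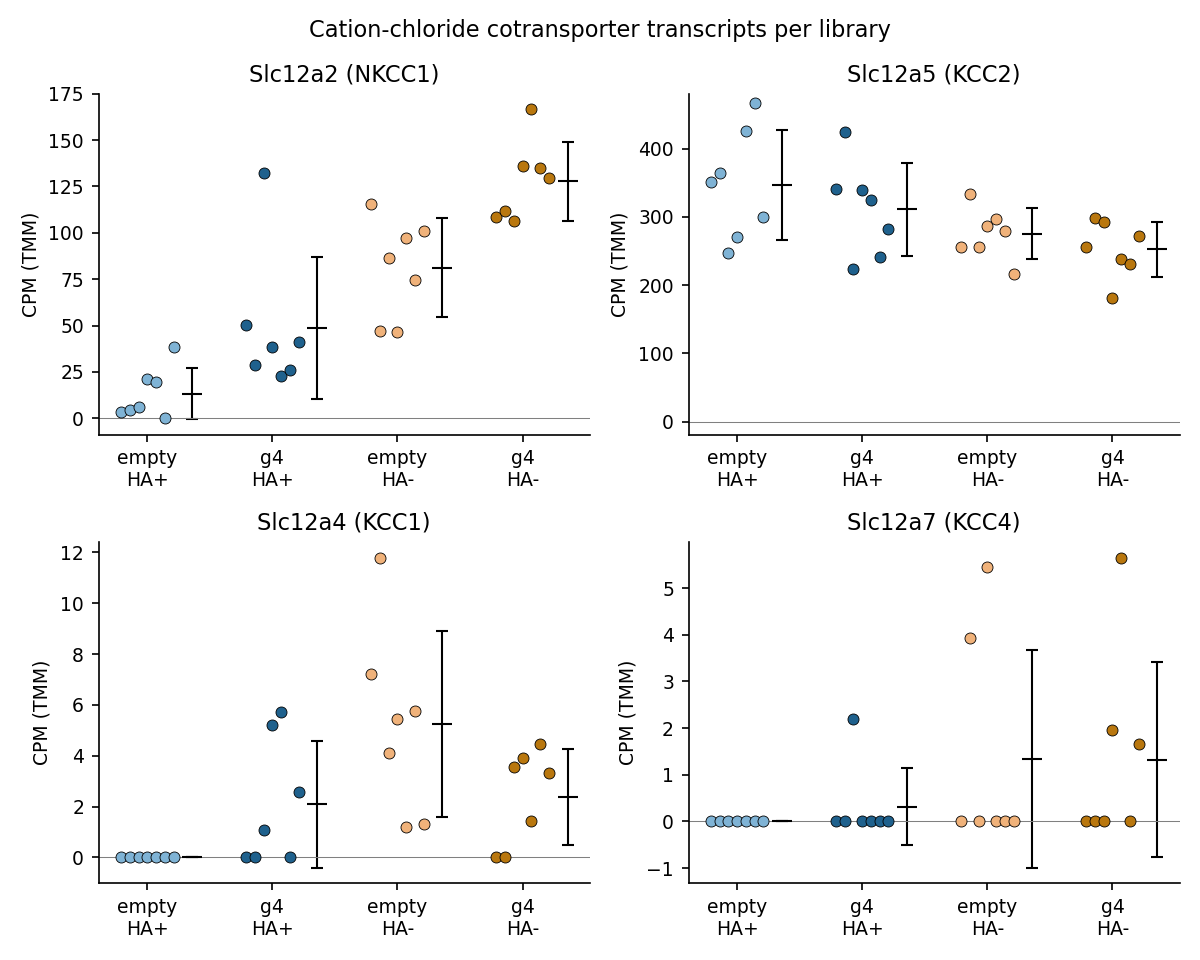
Levels of the 4 cation-chloride cotransporters in CPM scaled by TMM factors (y axis), in the 4 groups (x axis). Points are libraries, ordered from animal 17 to 23 within a group; the horizontal mark and bar beside them are the mean ± SD (n = 7), which can reach below 0. Slc12a2 was lowest in empty HA-positive nuclei, Slc12a5 overlapped in all groups, and Slc12a4 and Slc12a7 were near or at 0.

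From lowest to highest, group means of Slc12a2 were 13.3 ± 13.8 CPM in HA-positive nuclei with the empty vector and 48.6 ± 38.1 CPM with g4, then 81.2 ± 26.7 CPM in HA-negative nuclei with the empty vector and 128 ± 21.3 CPM with g4 (SD, n = 7). Neighbours in this order overlapped library by library. Without the library of animal 19 the g4 HA-positive mean was 34.6 ± 10.5 CPM (n = 6), and the order of the means was the same.

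Of the 4 cotransporters, 2 passed the filter on low counts in each comparison, Slc12a2 and Slc12a5. In the comparison of vectors in HA-positive nuclei Slc12a2 passed mainly through its g4 libraries. With the empty vector it passed the comparison of nuclei through HA-negative libraries. In both the filter favoured the direction reported below. With g4 its level was high enough to pass in either kind of nuclei. With the empty vector Slc12a2 fell by 2.65 ± 0.46 on the log2 scale (± SE) in HA-positive against HA-negative nuclei, a 6.26-fold difference. It was lower in 7 of 7 animals, with an adjusted p of 0.000263 in edgeR's quasi-likelihood test with Benjamini-Hochberg adjustment, the test behind all adjusted p-values below. Of all 5538 genes tested, 7.01% were called, 3.5% as higher and 3.5% as lower, and 1 of the 2 tested cotransporters was among them. Without the HA-positive libraries under 10000 genes the log2 difference was -2.31 (adjusted p = 0.000132), and without any filter on low counts it was -2.69 (adjusted p = 2.68e-09).

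With g4 the same contrast gave -1.33 ± 0.30 for Slc12a2, a 2.51-fold difference, lower in 6 of 7 animals and higher in animal 19 (adjusted p = 0.00718). It uses the g4 HA-negative libraries, where Slc12a2 was already known to stand higher than with the empty vector. That favoured a lower value in HA-positive nuclei, so this adjusted p is not free of the choice of gene. Here 6.4% of 6264 genes were called, 3.32% as higher and 3.08% as lower, and again 1 of the 2 tested cotransporters. With animal 19's g4 HA-positive library left out the log2 difference was -1.89 ± 0.23 (adjusted p = 1.64e-07), and leaving out single animals with all their libraries gave -1.93 to -1.11 (adjusted p from 4.57e-07 to 0.0488).

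The comparison of g4 with empty in HA-positive nuclei asked what accompanies the g4 vector in nuclei that carry Cas9. Slc12a2 had a log2 fold change of 1.92 ± 0.57 and was higher in 7 of 7 animals, but its groups overlapped and it did not pass (adjusted p = 0.39). Of 5011 genes tested 3 were called (0.0599%), 0.02% as higher and 0.0399% as lower, and 0 of the 2 tested cotransporters. Without the library of animal 19 the log2 fold change was 1.40 ± 0.59 (adjusted p = 0.763), and without the HA-positive libraries under 10000 genes it was 1.70 (adjusted p = 0.654). Without any filter on low counts it passed, at 1.97 (adjusted p = 0.0464).

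In HA-negative nuclei Slc12a2 stood 1.56-fold higher with g4, a log2 fold change of 0.64 ± 0.19, and was higher in 6 of 7 animals. Animal 17 was the exception, at 116 CPM in the empty and 108 CPM in the g4 library, and the groups overlapped. In this contrast edgeR called 0 of 6262 genes (0%), with 236 below an unadjusted p of 0.05, and DESeq2 called 1. The vector effects in the 2 kinds of nuclei were set against each other in a model of all 28 libraries. Slc12a2 had a difference of 1.33 ± 0.57 between them, larger in HA-positive nuclei, which did not pass (adjusted p = 0.924) and was 0.77 without the library of animal 19. This value too draws on the HA-negative contrast already known for Slc12a2. For that difference edgeR called 0 of 7197 genes (0%), with 359 below an unadjusted p of 0.05, and DESeq2 called 0.

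Slc12a5 encodes KCC2, the chloride extruder of mature neurons (ENSMUSG00000017740). It was the most abundant of the 4 members in every group and did not pass in any comparison in which it was tested. Its annotated 3′ UTR holds a single match to the seed of miR-124, shown because miR-124 is the microRNA the vectors are named for. The gene spans chromosome 2, 164960802 to 164999731, on the plus strand. The matching 7 bases are in capitals and begin at base 735 of a 3′ UTR of 2260 bases, and the stretch shown is chr2:164998196-164998223 on the plus strand of GRCm38.
Slc12a5 3′ UTR site: gtcctgcccgGTGCCTTcgtggaggagc

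Sites were searched on the transcript strand as GTGCCTT, called 7mer-m8, TGCCTTA, called 7mer-A1, or both overlapping, called 8mer. The longest 3′ UTR of Slc12a2, of 2770 bases, also held 1 match of the 7mer-m8 kind. Those of Slc12a4 (492 bases) and Slc12a7 (1820 bases) held 0. Among 21039 protein-coding genes with an annotated 3′ UTR, of all lengths, 19.6% held at least 1 match of any kind. A match is a description of letters in the annotation and shows neither binding nor response.

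The level of Slc12a5 was 351, 364, 247, 271, 426, 467 and 299.5 CPM in empty HA-positive libraries of animals 17 to 23. With g4 the HA-positive libraries had 341, 425, 224, 340, 324, 241 and 283 CPM. These groups overlapped almost throughout, with means of 346 ± 80.6 and 311 ± 68.4 CPM (SD, n = 7). In HA-negative libraries it was at 256, 334, 257, 287, 298, 280 and 216 CPM with the empty vector. With g4 they had 255, 298, 293, 181, 239, 231 and 272 CPM. Their means, 275 ± 37.3 and 253 ± 40.5 CPM, lay below both HA-positive means, and all 4 groups overlapped.

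Slc12a5 was 0.35 ± 0.15 higher on the log2 scale in HA-positive than in HA-negative nuclei with the empty vector, in 5 of 7 animals, and did not pass (adjusted p = 0.183). With g4 the difference was 0.30 ± 0.14, in 6 of 7 animals (adjusted p = 0.269). Without the HA-positive libraries under 10000 genes the value for the empty vector was 0.11 (adjusted p = 0.772). Between the vectors Slc12a5 had a log2 fold change of -0.18 ± 0.17 in HA-positive nuclei (higher in 2 and lower in 5 animals, adjusted p = 0.895). In HA-negative nuclei the value was -0.13 ± 0.13, also higher in 2 and lower in 5 animals. The difference between these vector effects was -0.04 ± 0.21 (adjusted p = 0.998). The plot of fold changes sets both tested cotransporters side by side.

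**Figure D2:**
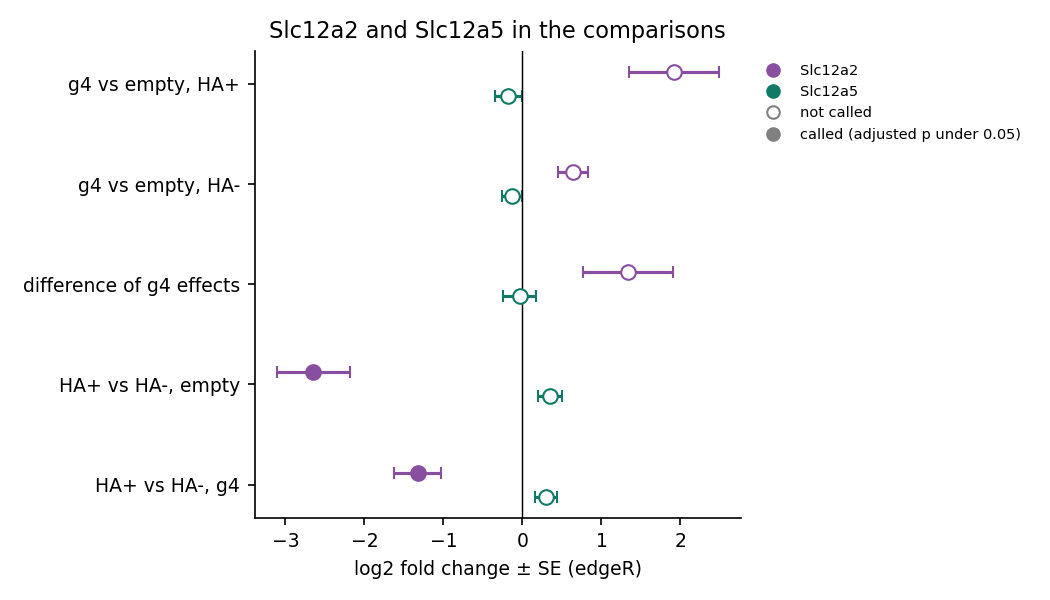
Log2 fold change ± SE from edgeR (x axis) of Slc12a2 and Slc12a5 in the 5 comparisons (y axis). Filled points were called at an adjusted p under 0.05 and open points were not; the row for g4 against empty in HA-negative nuclei is a description. Slc12a2 was called in HA-positive against HA-negative nuclei with either vector (-2.65 and -1.33), and Slc12a5 in 0 comparisons.

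Chloride import was set against extrusion as the log2 ratio of Slc12a2 to Slc12a5 counts, with 0.5 added to each. Both counts come from the same library, so they were not scaled, but depth and the added 0.5 weigh on the ratio where counts are near 0. The ratio compares the same pair of genes across libraries and is not a ratio of molecules, since it is not corrected for length. It ran from -8.83 to -2.90 in empty HA-positive libraries, with a mean of -5.28 ± 1.97 (SD, n = 7). That mean was -4.97 ± 1.65 with 1 added and -5.76 ± 2.71 with 0.1 added. In g4 HA-positive libraries it ran from -3.82 to -0.76 (mean -2.87 ± 1.03), and without animal 19 the mean was -3.22 ± 0.48. It was -1.81 ± 0.67 in empty HA-negative libraries (-2.80 to -1.09) and -0.98 ± 0.42 in g4 HA-negative ones (-1.45 to -0.41). Thus Slc12a5 counts exceeded Slc12a2 counts in each of the 28 libraries.

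Within animals the ratio was lower in HA-positive than in HA-negative nuclei in 7 of 7 animals with the empty vector, by a mean log2 difference of -3.46 ± 1.97 (SD over animals), and those groups did not overlap. With g4 it was lower in 6 of 7, at -1.89 ± 1.29, and higher in animal 19. Between vectors the ratio was higher with g4 in 7 of 7 animals in HA-positive nuclei, by 2.40 ± 2.14, and in 6 of 7 in HA-negative nuclei, by 0.83 ± 0.85, with overlapping groups in both. The widest span was in animal 22, whose empty HA-positive library had no count of Slc12a2. The plot of the ratio by animal follows each animal through the groups.

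**Figure D3:**
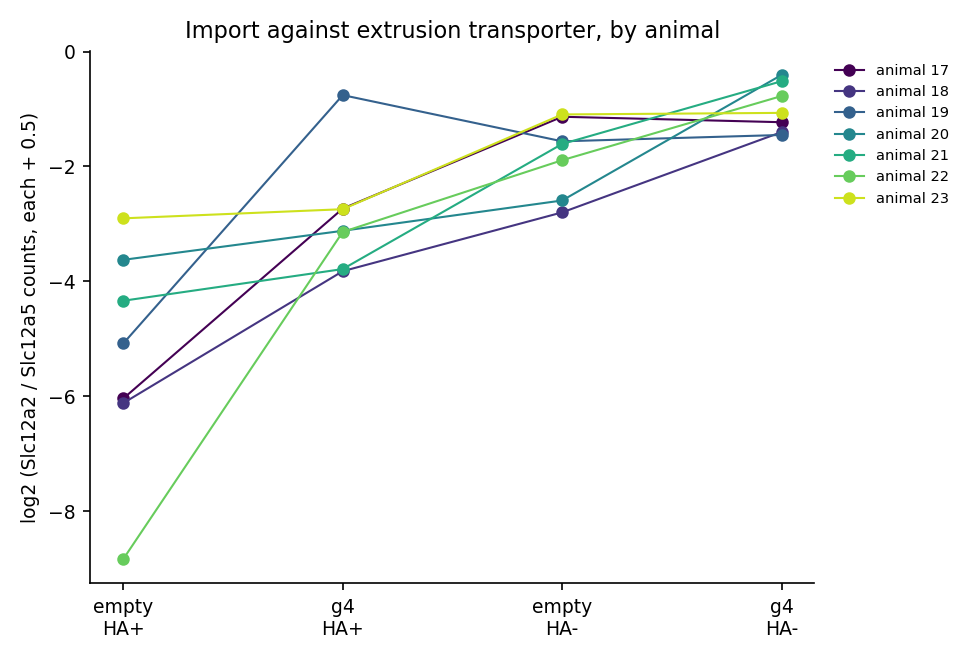
Log2 ratio of Slc12a2 to Slc12a5 counts, each with 0.5 added (y axis), in the 4 groups (x axis), with 1 line per animal. The lines start lowest in empty HA-positive nuclei, where animal 22 was at -8.83, and end between -1.45 and -0.41 in g4 HA-negative nuclei; animal 19 peaks in g4 HA-positive nuclei.

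Slc12a4, which encodes the widely expressed extruder KCC1 (ENSMUSG00000017765, chromosome 8, 105943590 to 105966097, minus strand, GRCm38), was at the edge of detection. It had 0 counts in all 7 empty HA-positive libraries and 9 in g4 HA-positive libraries, from animals 19, 20, 21 and 23. In HA-negative nuclei 18 counts were spread over all 7 empty libraries (5.27 ± 3.66 CPM) and 10 over 5 g4 libraries (2.38 ± 1.87 CPM). Pooled over the group, the empty HA-negative level was 4.62 CPM. That is 4.33-fold above a limit of 3 counts over the empty HA-positive group, which are 1.07 CPM. The counting error of the 18 counts is not included, so the fold is not a lower bound. Slc12a4 did not pass the filter and was not tested, and the antisense gene Gm16156 overlaps it by 2254 bases, whose reads cannot be assigned without a known strand setting.

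Slc12a7, which encodes the extruder KCC4 (ENSMUSG00000017756, chromosome 13, 73733094 to 73816754, plus strand, GRCm38), was rarer still. It had 0 counts in the empty HA-positive group and 2 in g4 HA-positive nuclei, both in animal 19. In HA-negative nuclei it had 4 counts with the empty vector, in animals 18 and 20, and 6 with g4, in animals 20, 21 and 23. At this depth a count of 0 over the group allows up to 1.07 CPM, and no difference between groups was detectable.

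Levels of different cotransporters were compared as CPM per kb of merged exons. Slc12a5 had mean levels of 46.5 and 41.8 in HA-positive nuclei with the empty and the g4 vector, and of 37.0 and 34.0 in HA-negative nuclei. Slc12a2 had levels of 1.22, 4.45, 7.44 and 11.7 in the same order of groups. Slc12a4 reached at most 1.23, in empty HA-negative nuclei, and Slc12a7 at most 0.106. On this scale the extruder Slc12a5 therefore stood above the importer in each group mean.

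Of the rest of the family, Slc12a1, Slc12a3, Slc12a8 and Slc12a9 did not pass the filter on low counts and were not tested. Slc12a9, a member without a settled transport function, had 5.15 to 10.6 CPM. Slc12a1, the kidney importer NKCC2, had 2 counts in all, and Slc12a3, the kidney sodium-chloride cotransporter, had 1 in empty HA-positive and 2 in empty HA-negative nuclei. Slc12a8 had at most 4 counts in a group.

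Regulators and partners of the cotransporters mostly did not pass. Of 14 genes of the WNK pathway and transporter partners, among them Wnk1, Stk39 (SPAK), Oxsr1 (OSR1) and Neto2, a partner of KCC2, 11 were tested between HA-positive and HA-negative nuclei with the empty vector and 0 were called. Their median log2 difference was 0.14, against 0.01 over all genes tested. With g4, 12 were tested and 1 was called lower, with a median of 0.05 against 0.01. That gene was Klhl2, an adaptor of the cullin 3 ubiquitin ligase that targets WNK kinases, at 67.1 ± 36.4 CPM in HA-positive and 135 ± 15.1 CPM in HA-negative nuclei. It fell by 0.96 ± 0.28 on the log2 scale, lower in 7 of 7 animals (adjusted p = 0.0424). With the animal as a block the value was -1.07 with an adjusted p of 0.0515, and Klhl2 also lost its call without animal 17, 20, 21, 22 or 23 (highest adjusted p 0.154).

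Other routes of anion transport were covered by 15 genes for chloride channels, bicarbonate exchangers, carbonic anhydrases and the volume-regulated anion channel. With the empty vector 12 were tested, and 1 was called higher and 1 lower in HA-positive nuclei (median log2 difference 0.10, against 0.01 over all genes). The lower gene was Car2, which encodes a cytosolic carbonic anhydrase, at 17.8 ± 14.9 against 93.1 ± 33.5 CPM. It fell by 2.30 ± 0.39 on the log2 scale, in 7 of 7 animals and without overlap (adjusted p = 0.000142). Car2 too was low in HA-positive nuclei, so the filter favoured this direction. Without any filter it was -2.36 (adjusted p = 5.99e-09). With g4, 13 were tested and Car2 alone was called, at 29.0 ± 23.3 against 86.9 ± 25.6 CPM (-1.51 ± 0.34, lower in 7 of 7, adjusted p = 0.00634), with a list median of 0.16 against 0.01.

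The higher gene with the empty vector was Lrrc8a, the obligatory subunit of the volume-regulated anion channel, at 75.0 ± 48.6 against 19.7 ± 11.6 CPM. It rose by 1.89 ± 0.46 on the log2 scale and was higher in 7 of 7 animals, with overlapping groups (adjusted p = 0.00834). Without the HA-positive libraries under 10000 genes the value was 1.11 and did not pass (adjusted p = 0.156). With g4 Lrrc8a had 56.1 ± 8.27 against 38.5 ± 8.70 CPM, a log2 difference of 0.56 ± 0.25 (adjusted p = 0.228).

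The sodium pump maintains the sodium and potassium gradients that drive the cotransporters. Its regulatory subunit Atp1b1 was higher in HA-positive nuclei with either vector, while the list of pump genes as a whole was mixed. With the empty vector 3 of 6 tested pump genes had a log2 difference above 0 (median -0.006, against 0.01 over all genes). With g4 it lay above 0 for 5 of 6 (median 0.43, against 0.01). Atp1b1 had 1779 ± 146 CPM in HA-positive and 965.9 ± 162 CPM in HA-negative nuclei with the empty vector (0.90 ± 0.11 on the log2 scale, higher in 7 of 7, adjusted p = 1.27e-06). With g4 it had 1460 ± 214 against 913.7 ± 125 CPM (0.68 ± 0.10, higher in 7 of 7, adjusted p = 4.58e-05). In the comparisons of vectors 0 genes of the WNK, anion transport and sodium pump lists were called by edgeR, in either kind of nuclei. Over all genes it called 3 of 5011 in HA-positive and 0 of 6262 in HA-negative nuclei.

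**Figure D4:**
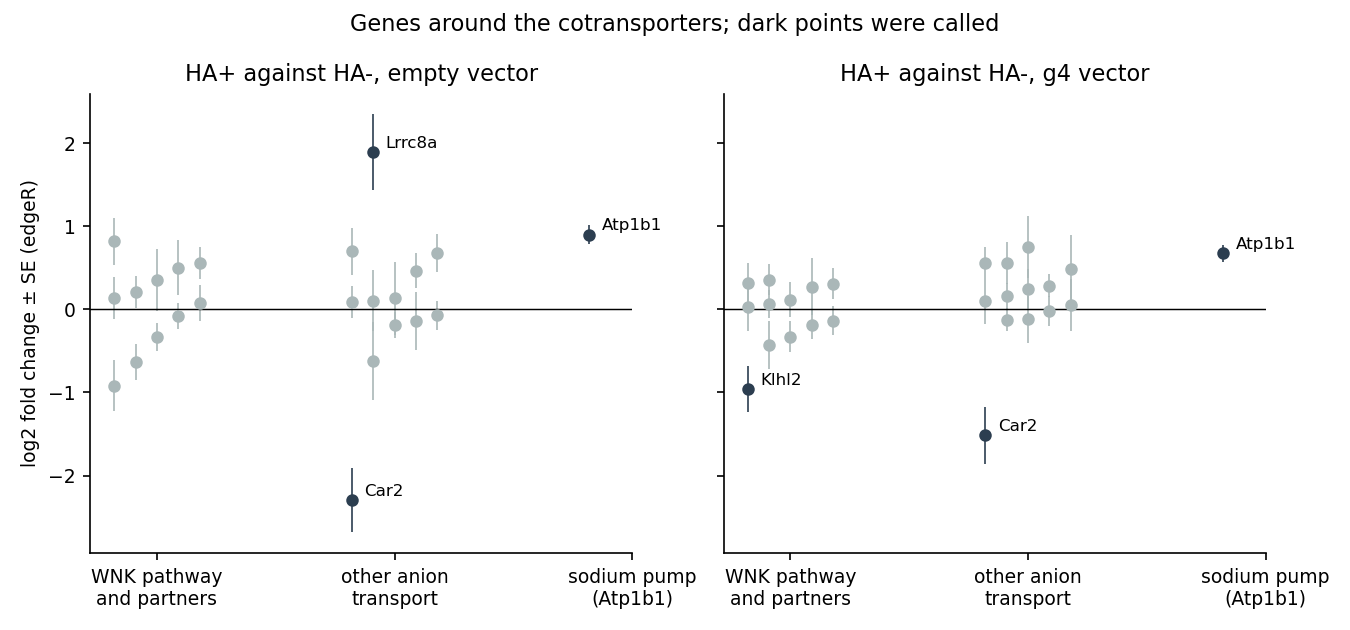
Log2 fold change ± SE from edgeR (y axis) of HA-positive against HA-negative nuclei for each tested gene of 2 lists and for Atp1b1 of the sodium pump (x axis), with the empty vector (left) and g4 (right). Dark, named points were called at an adjusted p under 0.05: Car2 (-2.30), Lrrc8a (1.89) and Atp1b1 (0.90) with the empty vector, and Car2 (-1.51), Klhl2 (-0.96) and Atp1b1 (0.68) with g4.

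Cell type markers differed between the sorted nuclei in the same comparisons as Slc12a2. The summed level of 14 oligodendrocyte markers was 231 to 615 CPM in empty HA-positive and 1620 to 2560 CPM in empty HA-negative libraries. In HA-positive nuclei 8 of the 9 tested markers were called lower, against 3.5% of all genes tested. Myrf, an oligodendrocyte transcription factor, made up 318 CPM of the empty HA-positive mean sum of 420 CPM, and Opalin was at 0 there. With g4 the sum was 188 to 462 CPM in 6 HA-positive libraries, 1880 CPM in that of animal 19, and 1760 to 3270 CPM in HA-negative ones. There 7 of 10 tested markers were called lower, against 3.08% of all genes tested. Markers near 0 in one kind of nuclei could pass the filter on low counts only through the other, which fixed their direction, so these counts of tested markers are descriptions.

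The 8 markers of oligodendrocyte precursors summed to 32.3 to 154 CPM in empty and 59.2 to 253 CPM in g4 HA-positive libraries, against 199 to 414 and 294 to 485 CPM in HA-negative ones. Of them Bcas1 was at 0 in empty HA-positive libraries. The 11 microglial markers summed to 7.17 to 49.9 CPM and 288 to 656 CPM in empty HA-positive and HA-negative libraries, with Cx3cr1, P2ry12, C1qa, C1qc and Gpr34 at 0 in the former. In g4 HA-positive nuclei the microglial sum was 375 CPM in animal 19 and at most 48.9 CPM in the others, against 437 to 688 CPM in HA-negative nuclei.

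Inhibitory neuron markers went the other way, with a summed level of 2280 to 3820 CPM in empty HA-positive and 753 to 1030 CPM in empty HA-negative libraries. There 7 of 9 tested inhibitory markers were called higher, and 8 of 9 with g4 (1590 to 3300 against 661 to 1050 CPM). Over all genes tested 3.5% were called higher with the empty vector and 3.32% with g4. Astrocyte sums overlapped, at 754 to 1590 and 1320 to 1740 CPM with the empty vector and 1000 to 2650 and 1330 to 1840 CPM with g4. Of the tested astrocyte markers 1 of 8 was called lower with the empty vector and 0 of 8 with g4. Over all genes 3.5% and 3.08% were called lower. The log2 difference lay above 0 for 1 of 8 astrocyte markers with the empty vector and 6 of 8 with g4. For excitatory neurons, the main class of the labelled tissue, sums were 904 to 1740 and 1510 to 2330 CPM with the empty vector and 1390 to 1960 and 1410 to 2200 CPM with g4. Only 1 of 10 and 1 of 11 tested excitatory markers were called lower. Their log2 differences were mostly below 0, with 1 of 10 above 0 with the empty vector and 3 of 11 with g4. Markers of striatal projection neurons, which lie outside the cortex, were also counted, at 694 to 1870 CPM in empty and 251 to 1540 CPM in g4 HA-negative libraries, against 85.2 to 186 and 96.7 to 524 CPM in HA-positive ones. The part of these cell types in the difference of Slc12a2 was not tested.

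Between the vectors 0 markers of any list were called by edgeR. In HA-positive nuclei 3 of 14 oligodendrocyte, 1 of 8 precursor and 0 of 11 microglial markers could be tested, against 7 of 10 astrocyte and 10 of 10 inhibitory ones. Over all genes edgeR called 3 of 5011 there and 0 of 6262 in HA-negative nuclei. With so few calls, 0 does not show that the markers were unchanged. In HA-negative nuclei, where Slc12a2 stood 1.56-fold higher with g4, the median oligodendrocyte sum was 2190 CPM in empty and 1950 CPM in g4 libraries. The mean sums went the other way, at 2120 and 2260 CPM. Precursor medians were 322 and 339 CPM, and microglial medians 396 and 555 CPM. Log2 fold changes lay above 0 for 9 of 12 tested oligodendrocyte, 4 of 5 precursor and 6 of 8 microglial markers, against 49.2% of all genes tested. The part of these cell types in the level of Slc12a2 was not tested. In HA-positive nuclei the medians were 427 and 257 CPM for oligodendrocytes, 90.5 and 129 CPM for precursors and 818 and 1500 CPM for astrocytes, and the part of the last 2 in the level of Slc12a2 was not tested. Markers of blood vessels had median sums of 13.1 to 40.8 CPM and those of choroid plexus and ependyma, a known site of NKCC1, 0 to 5.46 CPM in all groups, and none of them had enough counts to be tested.

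**Figure D5:**
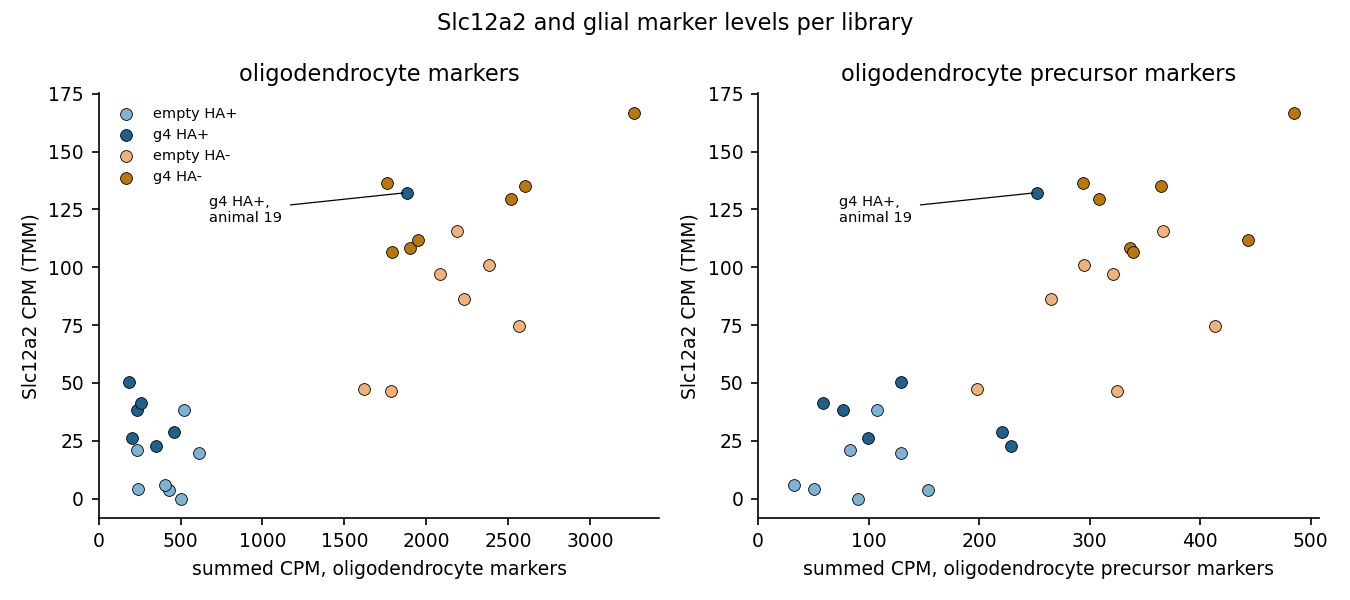
Slc12a2 in CPM (y axis) against the summed CPM of oligodendrocyte markers (left) and oligodendrocyte precursor markers (right) on the x axis, with 1 point per library coloured by group. HA-positive libraries lie at the lower left, apart from the g4 library of animal 19 (132 CPM of Slc12a2, 1880 CPM of oligodendrocyte markers).

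Across the 28 libraries the log2 CPM of Slc12a2 was correlated with the log2 marker sum of oligodendrocytes (Pearson r = 0.73), of precursors (0.77) and of microglia (0.78), and inversely with that of inhibitory neurons (-0.76). With group means subtracted and the library of animal 19 left out, the values were 0.09, 0.11, 0.25 and 0.20. Neuronal and other lists were correlated with Slc12a2 as well. Over the 28 libraries r was 0.72 for striatal projection neurons, 0.61 for astrocytes, 0.54 for excitatory neurons, 0.40 for blood vessels and 0.11 for choroid plexus and ependyma. Centred in the same way, these were 0.14, 0.25, -0.01, 0.09 and -0.10. These are descriptions, since the libraries share animals, groups and differences in depth.

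By the same measure over 7197 genes, the genes whose pattern was most like that of Slc12a2 were Skil (r = 0.88), Slain1 (0.86), Apod (0.86), Ugt8a (0.85) and Ndrg1 (0.85). With group means subtracted r was 0.64, 0.46, 0.59, 0.71 and 0.65, with the g4 HA-positive library of animal 19 kept in. These centred values were not computed without that library. Among g4 HA-positive libraries Ugt8a reached 79.8 CPM with a median of 6.05 CPM, and Apod 63.4 CPM with a median of 2.86 CPM. Skil had 72.7 ± 15.7 and 103 ± 24.8 CPM in HA-positive nuclei with the empty and the g4 vector, and 119 ± 20.6 and 142 ± 27.1 CPM in HA-negative nuclei, the same order of means as Slc12a2. For Slc12a5 the most alike were Lynx1 (0.69), Cox5b (0.68), Sgsm1 (0.66), Efr3b (0.65) and Ldhb (0.64). The importer and the extruder had r = -0.65 with each other, which placed Slc12a5 at 7116 of 7197 genes in order of likeness to Slc12a2. Without the library of animal 19 their r was -0.63. With group means subtracted and that library kept in, r was -0.46. Without the library of animal 19, Skil and Slain1 were still the 2 genes most like Slc12a2 (r = 0.88 and 0.86), with Apod at place 4, Ndrg1 at 6 and Ugt8a at 7. The order for Slc12a5 moved more, with Ldhb at place 2, Lynx1 at 4, Cox5b at 5, Efr3b at 10 and Sgsm1 at 12.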

How the data were processed

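The values deposited by the authors are raw counts of reads for each gene and library, per the labels. The genome build, GRCm38, is from the submitters' processing notes, while the aligner, the counting program and the strand setting were not given in the sources used here. Empty cells were read as a count of 0, and 1 entry without a gene name was left out of 41549 genes kept. Groups and animals were taken from the sample titles, and columns were matched through the sample descriptions. Animals 21, 22 and 23 of the titles are numbered 22, 23 and 24 in the column names. Starting amounts of RNA were in the picogram range, per the labels' protocols, and reads without molecular identifiers are not independent molecules, so limits from counts cover counting error only. The members and the gene lists were chosen with earlier results of these data known.

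Tests were edgeR 4.0.16 quasi-likelihood tests in R 4.3.3 (TMM factors, robust fit, two-sided, low counts removed with filterByExpr), adjusted by Benjamini-Hochberg over all genes tested and called under 0.05. The script was tested on simulated data. CPM were counts over TMM-scaled library sizes of the 7197 genes kept in all 28 libraries. The SE of an edgeR log2 fold change was derived from its test, as the absolute change over the square root of the F statistic. Correlations used log2 CPM with a prior count of 2. DESeq2 1.42.0, RLE factors, no filter, and leaving out libraries were alternatives. Positions, exon lengths and 3′ UTRs came from GENCODE M21 (41474 genes matched). Named genes were the members, other genes of the family, up to 6 called genes per list and comparison, and the 5 genes most alike. Libraries of a pair came from the same animal by their titles, so the animal was an alternative block. Deviations of paired libraries from their group means correlated at -0.05 to 0.048 between vectors in HA-positive and 0.00228 to 0.132 in HA-negative nuclei, and at -0.00564 to 0.0525 (empty) and -0.1 to 0.132 (g4) between nuclei. Some genes of the family and of the lists are not reported here.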

Additional observations from a re-analysis of the deposited data

Results flagged for a closer look

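In groups of 7 libraries, 4 of 18 groups of values had 1 library far from the others by Dixon's criterion. For continuous and independent values chance gives about 1 in 20. The groups here are neither, since most Slc12a7 counts were 0 and Slc12a2 counts enter both its level and the ratio. The number flagged therefore cannot be set against that share. Of the 4 flagged groups, 3 concern the g4 HA-positive library of animal 19. Slc12a2 was at 132 CPM there against at most 50.4 CPM in the other 6, a gap of 0.748 of the whole range. Slc12a7 was at 2.19 CPM there and at 0 in the other 6, and the log2 ratio of Slc12a2 to Slc12a5 was -0.758 against at most -2.73. In the same library the oligodendrocyte marker sum was 1880 CPM and the microglial sum 375 CPM. The remaining one was Slc12a7 in the g4 HA-negative library of animal 21, at 5.65 CPM against at most 1.95 CPM in the others, which rests on 4 counts.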

How the results depend on the processing

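The lower Slc12a2 in HA-positive than in HA-negative nuclei kept its direction and call under every alternative run, with either vector. With g4 each run used HA-negative libraries in which Slc12a2 was already known to stand higher than with the empty vector. With the empty vector the filter on low counts favoured this direction, and the run without it gave -2.69 (adjusted p = 2.68e-09). With the animal as a replicate block it was -2.79 with the empty vector (adjusted p = 0.000586) and -1.55 with g4 (adjusted p = 0.0028). The block left 1 gene called between vectors in HA-positive nuclei and ended the call of Klhl2 with g4, at -1.07 (adjusted p = 0.0515); it changed no other call of a named gene. The number of genes called between vectors in HA-positive nuclei, 3, became 11 with DESeq2, 28 without a filter, 5 without animal 19's g4 HA-positive library, 0 without the libraries under 10000 genes, and 1 (without animal 18) to 4 over animals left out. In HA-negative nuclei DESeq2 called 1 gene, and without a filter 3 genes were called for the difference of the vector effects; leaving out animals gave 0 in both. Between nuclei with the empty vector 388 genes became 661 without a filter (233 higher, 428 lower, against 194 each), and 251 (without animal 19) to 371 over animals left out. With g4, 401 genes became 218 (without animal 20) to 422, with 224 without animal 21 and 241 without animal 22. The near-zero difference of vector effects on Slc12a5 changed sign, to 0.019 without that library, 0.11 without the libraries under 10000 genes, and -0.20 to 0.056 over animals left out (0.056 without 22, 0.0042 without 19, 0.011 without 23). For Slc12a2 between vectors in HA-positive nuclei, leaving out animals gave 1.28 to 2.19; without animal 23 it did not pass the filter, and DESeq2 gave no adjusted p. The cause of these shifts was not tested. With 35 counts of Slc12a2 in empty HA-positive libraries, and 0 of Slc12a4 and Slc12a7, depth limits every value of that group.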
